A study of Mus musculus with 4 samples.

Results

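H3K27me3 peaks at transcription starts that did not overlap a RUNX1 peak were examined in mouse blood progenitors made from embryonic stem cells (ESCs). Overlapping peaks of 2 H3K27me3 peak lists were merged over chromosomes 1 to 19 into 9093 regions. Regions were selected on measured peak calls: a peak of both lists, a centre within 1500 bp of a transcription start of the mm10 annotation (GENCODE vM21), and no overlap with a peak of either of 2 RUNX1 lists. Of the 9093 regions, 3549 held a peak of both lists, 2448 of these were centred at a promoter in this sense, and 1816 of these had no RUNX1 peak. The presence of H3K27me3 and the absence of RUNX1 at the 1816 regions are therefore the rule and not a result.

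The cells carried a Tet-on dominant-negative FOS peptide (dnFOS), which Doxycycline induces and which keeps JUN-family proteins from binding DNA. They were collected at day 2 as floating hematopoietic progenitors, grown with or without Doxycycline (DOX), crosslinked with DSG and formaldehyde, and used for ChIP-seq. There was 1 library per label and antibody, so no spread between replicates, no test and no p-value could be given. On the autosomes the RUNX1 lists held 21467 peaks (library labelled DOX) and 18052 peaks (library labelled untreated), and the H3K27me3 lists 6216 (titled untr) and 7071 (titled DOX). The sources contradict each other on all 4 libraries. For RUNX1, the run name inside each list gives the treatment opposite to the label. For H3K27me3, title and run name give one treatment and the treatment label the other, and the protocol given with these libraries names an antibody against RUNX1. The H3K27me3 libraries were therefore told apart only by title, and no effect of DOX was derived. All cells carried dnFOS, and the dnFOS ESC line limits the series to 1 engineered genotype.

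H3K27me3 is the trimethylation of histone H3 at lysine 27, laid down by Polycomb repressive complex 2 (PRC2) and read by Polycomb repressive complex 1. In stem and progenitor cells it marks CpG-rich promoters of developmental regulators of other lineages, which are kept silent but can be opened later. RUNX1 is the DNA-binding factor required for the transition from endothelium to blood, after which it binds many promoters and enhancers of blood genes.

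To show what such regions look like, stretches of 9 of them were read from the GRCm38 (mm10) genome, forward strand, with each CpG dinucleotide in capitals. They were taken outside annotated exons, except for Cebpa, which is coding sequence. Unc45b held the strongest region and Kcnh3 one of the 10 strongest, Wnt9b, Sox7 and Nkx2-2 stand for transcription factor and signalling genes, Cebpa and Irf8 for regulators of myeloid cells, Mir9-3 for microRNA genes and Gm10722 for satellite repeats.
Unc45b, chr11:82932249-82932433: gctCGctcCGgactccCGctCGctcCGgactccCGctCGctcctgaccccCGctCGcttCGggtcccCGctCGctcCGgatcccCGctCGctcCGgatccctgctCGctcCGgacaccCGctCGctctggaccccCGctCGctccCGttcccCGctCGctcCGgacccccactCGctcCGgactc
Kcnh3, chr15:99224579-99224778: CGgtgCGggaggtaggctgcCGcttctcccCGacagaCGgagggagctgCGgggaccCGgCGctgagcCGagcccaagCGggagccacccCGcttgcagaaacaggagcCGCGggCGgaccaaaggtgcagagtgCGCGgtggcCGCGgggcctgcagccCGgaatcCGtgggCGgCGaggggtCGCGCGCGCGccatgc
Wnt9b, chr11:103749880-103750079: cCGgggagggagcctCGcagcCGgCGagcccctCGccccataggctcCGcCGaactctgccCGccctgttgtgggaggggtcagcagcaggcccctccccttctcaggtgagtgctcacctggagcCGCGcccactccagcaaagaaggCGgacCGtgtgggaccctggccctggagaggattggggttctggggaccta
Sox7, chr14:63943407-63943606: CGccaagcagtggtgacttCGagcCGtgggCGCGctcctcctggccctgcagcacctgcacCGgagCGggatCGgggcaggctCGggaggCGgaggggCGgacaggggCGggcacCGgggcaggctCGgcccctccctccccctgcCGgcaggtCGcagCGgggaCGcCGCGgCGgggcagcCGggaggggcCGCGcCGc
Nkx2-2, chr2:147194279-147194478: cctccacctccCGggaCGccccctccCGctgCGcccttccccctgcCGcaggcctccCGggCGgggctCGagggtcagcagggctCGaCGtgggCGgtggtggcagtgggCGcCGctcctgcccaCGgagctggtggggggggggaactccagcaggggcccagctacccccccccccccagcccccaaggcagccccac
Cebpa, chr7:35119855-35120054: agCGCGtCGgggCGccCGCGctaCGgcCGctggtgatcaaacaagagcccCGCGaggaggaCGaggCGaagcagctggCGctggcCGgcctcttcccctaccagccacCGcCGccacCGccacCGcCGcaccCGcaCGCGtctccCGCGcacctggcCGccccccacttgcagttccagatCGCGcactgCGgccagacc
Irf8, chr8:120735683-120735882: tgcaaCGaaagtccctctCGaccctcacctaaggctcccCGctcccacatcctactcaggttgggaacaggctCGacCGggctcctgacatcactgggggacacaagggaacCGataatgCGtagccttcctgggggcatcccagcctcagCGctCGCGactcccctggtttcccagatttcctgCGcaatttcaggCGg
Mir9-3, chr7:79505024-79505223: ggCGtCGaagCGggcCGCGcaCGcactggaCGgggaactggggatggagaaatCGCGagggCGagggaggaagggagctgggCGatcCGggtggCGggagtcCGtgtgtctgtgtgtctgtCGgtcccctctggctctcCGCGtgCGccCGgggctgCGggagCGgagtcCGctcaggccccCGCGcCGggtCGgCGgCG
Gm10722, chr9:3001672-3001846: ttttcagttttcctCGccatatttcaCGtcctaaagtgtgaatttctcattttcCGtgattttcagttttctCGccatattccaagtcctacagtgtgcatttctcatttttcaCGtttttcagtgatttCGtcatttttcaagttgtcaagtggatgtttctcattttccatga
The capitals fell 28 times in the 185 bases at Unc45b, 28 times in 200 bases each at Cebpa and Mir9-3, and 12 times in 200 bases at Wnt9b and at Irf8. The stretch at Gm10722 held 6 CpGs in 175 bases with a GC content of 36.0%, whereas the stretches at Kcnh3 and Sox7 had a GC content of 75.5% and 80.5%. For its GC content the Gm10722 stretch was not poor in CpG. Its ratio of observed to expected CpG was 1.11, against 0.966 at Kcnh3 and 0.78 at Sox7. Of the 9 stretches only Unc45b, at 1.26, had a higher ratio.

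The 1816 regions lay at CpG-rich sequence. In 500 bp around the centre, the median ratio of observed to expected CpG was 0.80, with a middle range of 0.68 to 0.89, and the median GC content was 68.8%. A ratio of at least 0.6 with a GC content over 50% was met by 1555 of the 1816 regions, or 85.6% (95% Wilson interval 83.9 to 87.2, which like all intervals here covers counting error over regions or genes only). The same held for 78.3% (74.9 to 81.4) of the 632 promoter regions that overlapped a RUNX1 peak, for 60.1% (55.7 to 64.4) of the 489 regions in both lists away from promoters and without RUNX1, and for 49.5% of 20698 windows at protein-coding starts. The RUNX1-overlapped regions had a higher median ratio, 0.85, but also a tail of CpG-poor sequence: 11.6% of them lay over 50% in soft-masked repeats, against 34 of the 1816, or 1.87%. Among the protein-coding genes with a region without RUNX1, the window at the start itself had a median ratio of 0.72, against 0.61 over all protein-coding starts. At these starts 67.6% (65.1 to 70.0) of 1438 met both limits, which is the like comparison for the 49.5%.

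**Figure D1:**
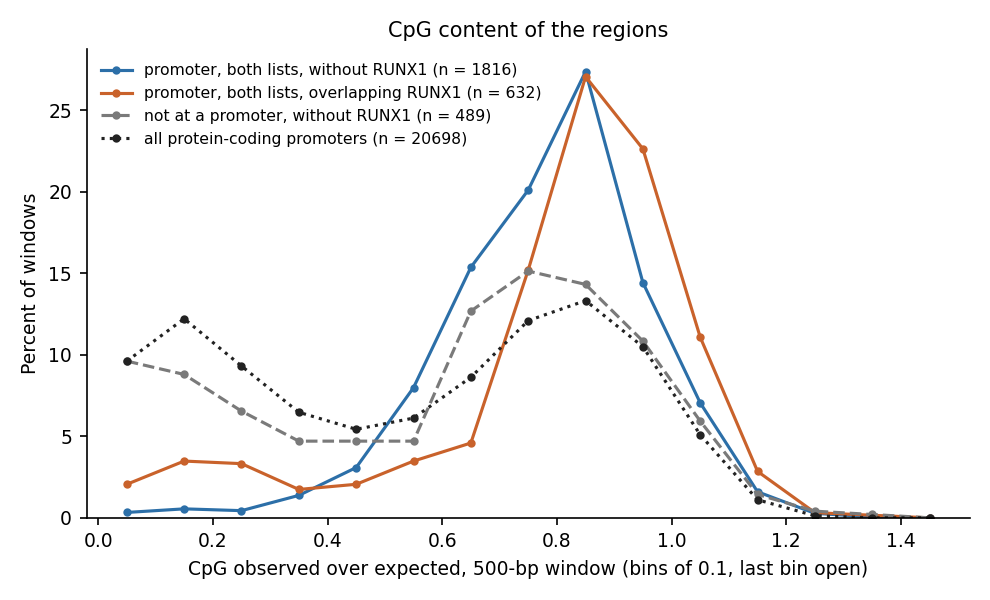
Share of windows (y axis, percent) by ratio of observed to expected CpG in 500 bp (x axis, bins of 0.1) for promoter H3K27me3 regions without RUNX1 (blue, n = 1816), those overlapping RUNX1 (orange, n = 632), regions away from promoters without RUNX1 (grey dashed, n = 489) and all protein-coding starts (black dotted, n = 20698). Both promoter classes peak between 0.8 and 0.9, and the low peak of all protein-coding starts is nearly missing at the regions without RUNX1.

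Regions as called were narrow, and most were centred close to a start. Their median width was 357 bp, from 101 to 1820 bp. Neighbouring peaks that did not overlap stayed separate regions, so these widths describe the peak calls and not the extent of the mark. The rule itself places every centre within 1500 bp of a start, so only the position inside this limit is a result. The median centre lay 136.5 bp downstream of the nearest start, 51.7% were within 250 bp of it and 74.5% within 500 bp, and 30.3% were centred upstream. A start lay inside 783 of the 1816 regions, or 43.1% (40.9 to 45.4), against 50.8% (46.9 to 54.7) of the RUNX1-overlapped regions. By annotation, 540 centres fell in a coding exon, 577 in a non-coding exon or untranslated part, 508 in an intron and 191 outside genes. Within 1500 bp, 322 regions had starts on both strands. Just inside the limit of 1500 bp were regions at E030030I06Rik (−1500 bp, negative being upstream), Pcdh10 (−1497 bp) and Inhbb (1490.5 bp), and the nearest regions left out were 1500.5, 1511 and 1517 bp away from a start.

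**Figure D2:**
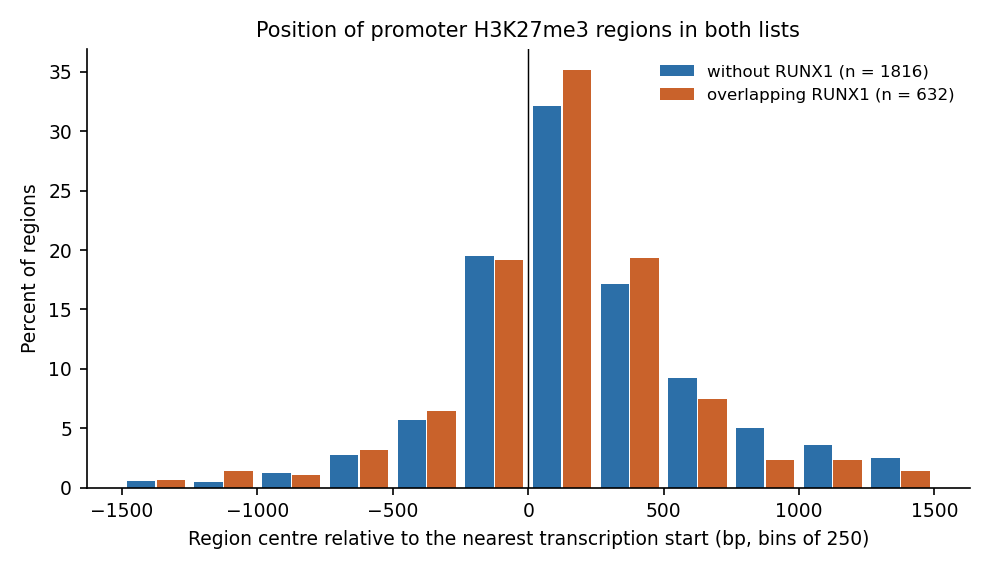
Share of regions (y axis, percent) by position of the centre relative to the nearest transcription start (x axis, bp, bins of 250, negative is upstream) for regions without RUNX1 (blue, n = 1816) and overlapping RUNX1 (orange, n = 632). In both classes the fullest bin is the first 250 bp downstream, with 32.1% and 35.1%.

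Strength was taken as the percentile of a peak's −log10 q within its own list, using the strongest peak of the list in a region, because the q-values of separate libraries have no common scale. The median region without RUNX1 stood at percentile 58.9 in the list titled untr (−log10 q 7.54, fold enrichment 5.28) and at 59.0 in the list titled DOX (6.06 and 5.04). Both lists placed 286 regions above percentile 75, 818 above 50 and 76 below 25, while 32 were above 75 in one list and below 25 in the other. Across the 1816 regions the Spearman correlation of the percentiles was 0.51, given as a description since both lists were needed for selection. In the 632 RUNX1-overlapped regions it was 0.67, and their medians were percentiles 74.8 and 74.0.

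**Figure D3:**
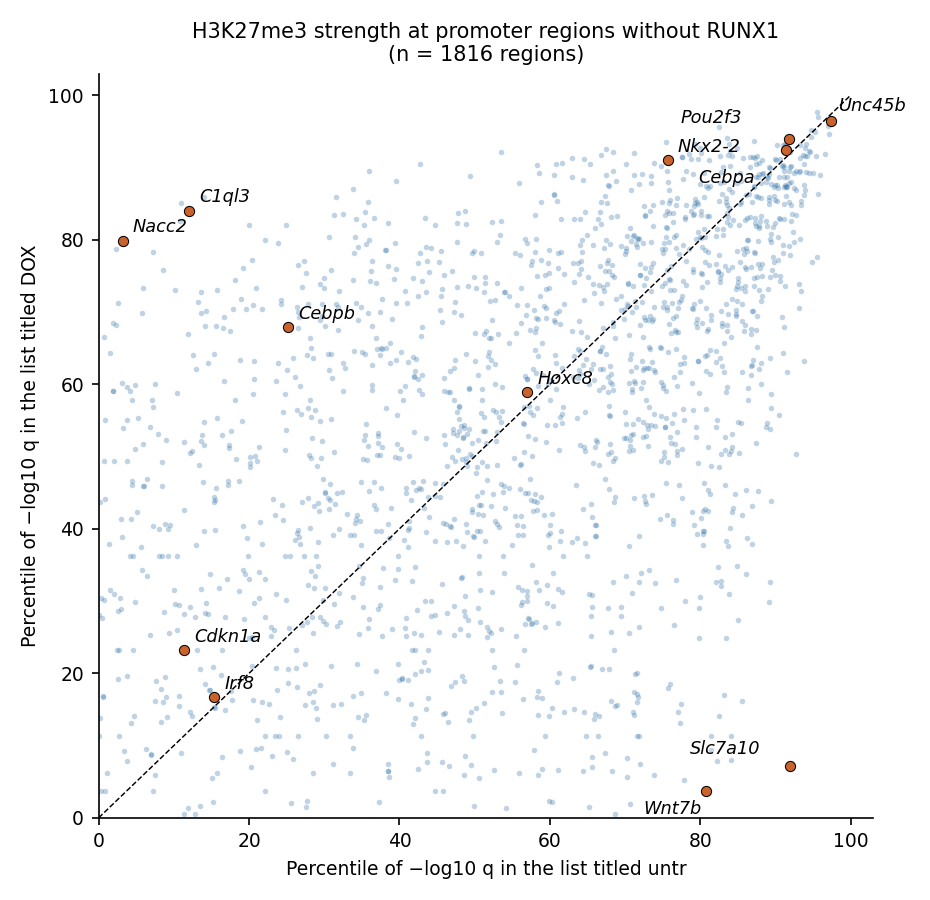
Percentile of −log10 q in the list titled untr (x axis) and in the list titled DOX (y axis) for the 1816 regions without RUNX1 (blue points), with regions of 12 named genes in orange and the line of equal percentiles dashed. Cebpa, Pou2f3 and Unc45b sit above percentile 91 in both lists, Irf8 and Cdkn1a below 25 in both, and Nacc2, C1ql3, Slc7a10 and Wnt7b far from the line.

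The strongest regions by mean percentile were not at classical developmental genes alone. Unc45b, which encodes a chaperone of muscle myosin, held 2 of the top 10 regions. Its region chr11:82932249-82932433 had −log10 q 46.5 and 36.9 (titled untr and titled DOX, in this order throughout), percentiles 97.4 and 96.4. The centre lay 1041 bp downstream of the nearest start, that of Unc45bos, with a CpG ratio of 1.29. The stretch shown above repeats a short unit. As 0% of this region was soft-masked, the repeats counted below do not include it. Csf2ra, the alpha chain of the GM-CSF receptor of myeloid cells, followed with −log10 q 31.8 and 54.2 in a region of 137 bp that was CpG-poor (ratio 0.38) and 38.7% soft-masked. H60b, which encodes a ligand of the NKG2D receptor, held a region at percentiles 97.1 and 94.7 and a second one shared with Raet1e, another such ligand, at 94.8 and 94.3. Kdf1, a regulator of keratinocyte differentiation, stood at 94.7 and 95.2 and Kcnh3, a voltage-gated potassium channel of the brain, at 94.1 and 93.3. A region between 5S ribosomal RNA genes (n-R5s146 and Gm22291), the satellite locus Gm10722 and the repeat at Gm37738 completed the top 10, and these 3 were 71.9%, 100% and 98.5% soft-masked.

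Repeats made up little of the set but sat high in it. The 34 regions that were over 50% soft-masked had median percentiles of 83.3 and 86.9, a median GC content of 35.9% and a width of 131 bp at the median. Of these, a row of satellite loci on chromosome 9 from Gm10717 to Gm10720 held 12 regions within 15.9 kb, and Gm10717 had 7, the most of any gene. Peaks there had a high −log10 q at a low fold enrichment: the strongest region of Gm10717 had −log10 q 24.9 and 14.2 at folds of 1.89 and 1.76. A RUNX1 peak lay 273 bp from that region. Gm10717, Gm10718, Gm10719 and Gm10720 also had RUNX1-overlapped regions, so absence of RUNX1 means little at this array. Reads from copies of a repeat cannot be assigned to 1 copy, so these loci are uncertain. With them left out the next regions by mean percentile were at Hoxa4, Chd5 and at the shared start region of Ccdc92 and Zfp664, all above percentile 91 in both lists.

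A protein-coding start was within 1500 bp of 1708 of the 1816 regions, and these named 1438 protein-coding genes, 6.92% of the 20780 on these chromosomes. For RUNX1-overlapped regions it was 498 genes, or 2.4%, and 114 genes had regions of both kinds. Genes named below that were among these 114 include Pou4f1, Sim2, Ovol2, Foxe1, Col8a2, Cdh1, Fzd1 and Fzd2. Cadm4, Zbtb7c, Nacc2, Trim2 and Fam20c were also among them. At such genes a region without RUNX1 does not mean that all promoter H3K27me3 regions of the gene lacked RUNX1. Most of the 1438 genes, 1168, had 1 region, 229 had 2 and 41 had 3 or more. Beside Gm10717 and H60b, the gene with most regions was Rbfox3, the neuronal splicing factor known as NeuN, with 5 regions at 2 start sites whose percentiles ran from 59.97 to 73.9 in the list titled untr and from 16.7 to 76.1 in the list titled DOX. Adcy5 (an adenylyl cyclase), Bcan (the brain proteoglycan brevican), Dlx3, Tlx2 (both homeobox factors), Rap1gap2 and Zbtb7c had 4 each. Of all regions, 605 lay within 10 kb of another one, in 274 groups. With peaks up to 500 bp apart merged, 1588 regions remained, so the counts of regions per gene depend on how peaks were called and merged.

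Genes were then grouped by 29 lists, of which 10 hold developmental transcription factors. Together the 10 lists count 497 genes, and 172 of them, 34.6% (30.6 to 38.9), had a region without RUNX1, against 6.92% of all genes. Read the other way, 11.96% (10.4 to 13.7) of the 1438 genes were in these lists, against 7.43% (5.44 to 10.1) of the 498 genes with RUNX1-overlapped regions and 2.39% of all genes. CpG content moves with this: among the 10253 genes with a CpG-rich start, 9.48% had a region without RUNX1, and among the 302 listed factors with a CpG-rich start 42.7% (37.3 to 48.4). At starts below these limits the shares were 4.46% of 10445 genes and 22.1% of 195 factors.

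**Figure D4:**
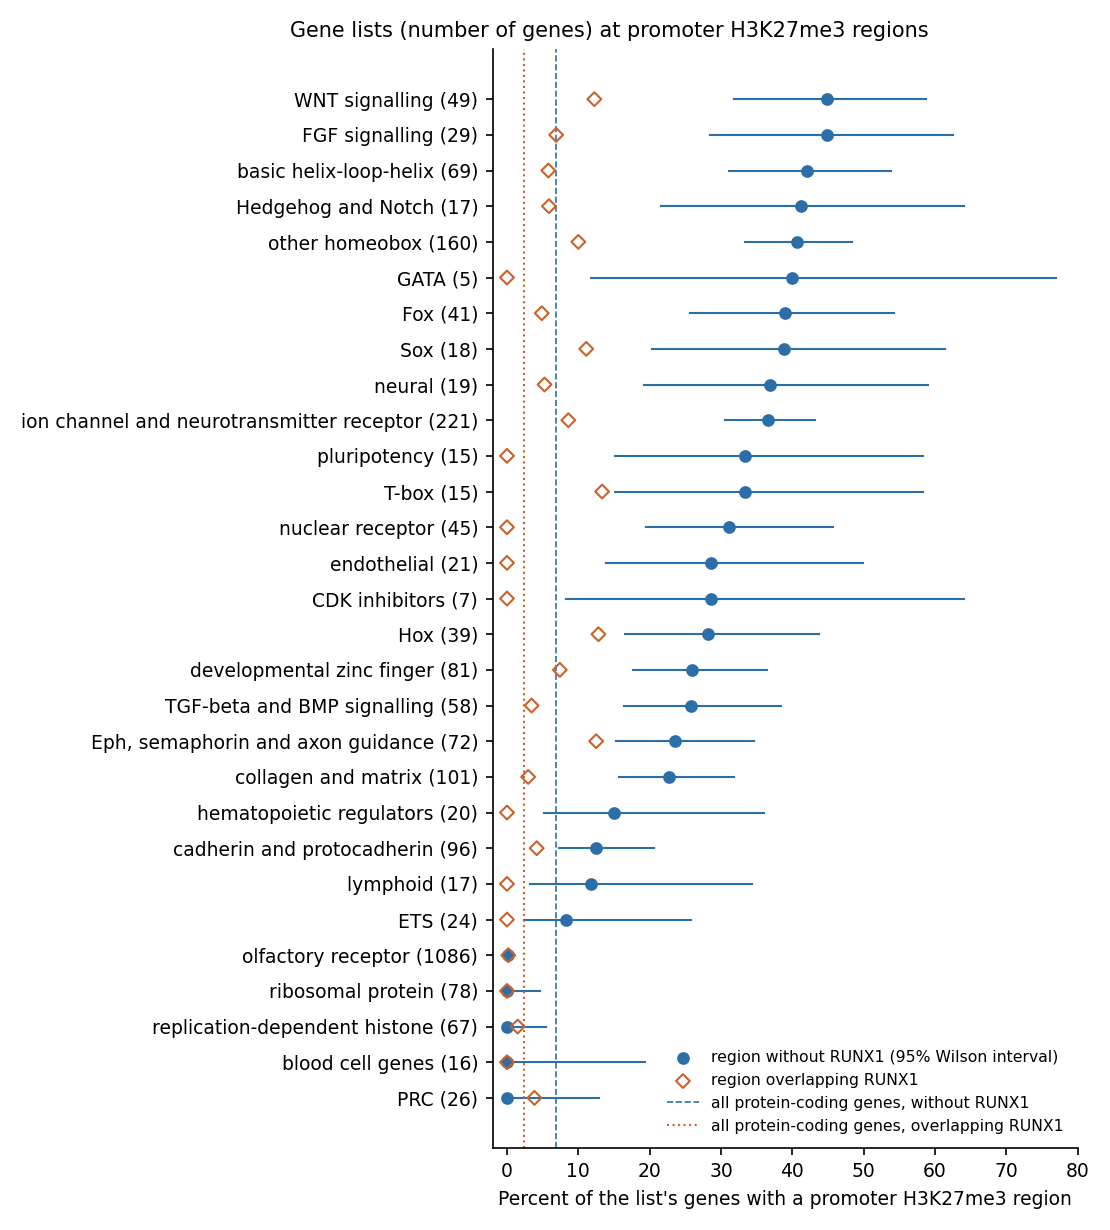
Percent of each list's genes with a promoter H3K27me3 region without RUNX1 (blue circles, lines are 95% Wilson intervals) and with one overlapping RUNX1 (orange diamonds), with the number of genes in parentheses and the shares of all protein-coding genes as dashed (6.92%) and dotted (2.4%) lines. WNT signalling (44.9%), FGF signalling (44.8%) and basic helix-loop-helix genes (42.0%) stand highest, and ribosomal protein, histone, blood cell and Polycomb genes at 0.

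Homeobox factors, which specify position and cell type in the embryo, were the largest group of regulators. Outside the Hox clusters 65 of 160 genes had a region without RUNX1, 40.6% (33.3 to 48.4), and 16 a RUNX1-overlapped one. Pou2f3, a POU factor of epidermis and chemosensory cells, had −log10 q 19.7 and 22.5 and percentiles 91.8 and 93.9. Onecut3, a factor of liver, pancreas and neurons, stood at 91.3 and 92.4, and Pou4f1 of sensory neurons at 95.7 and 86.3. These 3 were high in both lists, and Pou4f1 also had a RUNX1-overlapped region. The Dlx factors of forebrain and craniofacial development were covered almost as a family, with 5 of 6 genes, and of the Nkx factors 7 of 14 had a region.

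In the Hox clusters, which pattern the body axis, 11 of 39 genes, 28.2% (16.5 to 43.8), had a region without RUNX1 and 5 a RUNX1-overlapped one. Hoxd1 and Hoxd13 had both. The strongest was Hoxa4, chr6:52191046-52191648, with −log10 q 30.8 and 16.6 and percentiles 95.3 and 91.6, and the nearest RUNX1 peak was 12 bp away. Hoxc13 stood at 93.4 and 85.3 with the nearest RUNX1 peak 53723 bp away. The other 9 genes were weaker, with Hoxd1 at 52.6 and 20.9 and Hoxc8 at 56.99 and 58.9. Hoxd11 had 3 regions, at percentiles from 27.003 to 75.3 in the list titled untr and from 43.7 to 54.1 in the list titled DOX.

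Among basic helix-loop-helix factors, which drive neurogenesis, myogenesis and other fates, 29 of 69 genes, 42.0% (31.1 to 53.8), had a region. Tcf24 stood at percentiles 91.0 and 90.3, Sim2, a midline factor, at 89.2 and 85.5, Npas1, a factor of inhibitory neurons, at 71.1 and 89.0, and Twist1, a factor of mesenchyme, at 74.9 and 78.7. Forkhead genes were represented by 16 of 41, with Foxi3, Foxe1, Foxd2 and Foxe3 between percentiles 84.2 and 91.0 in the list titled untr and between 76.2 and 80.01 in the list titled DOX. Of 18 Sox genes 7 had a region, and of 15 T-box genes 5, among them T (Brachyury), the factor of early mesoderm, at percentiles 51.7 and 26.3. Zinc finger factors had 21 of 81, led by Insm2 (91.1 and 89.5) and Ovol2 (87.8 and 90.6). Nuclear receptors had 14 of 45, 31.1% (19.5 to 45.7). None had a RUNX1-overlapped region, a count too small to set apart from the 2.4% of all genes. Of 24 ETS factors only Etv4 and Fev had a region, 8.33% (2.32 to 25.8), an interval that includes the share of all genes.

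Both GATA factors in the set are factors of endoderm and heart. Gata6 stood at percentiles 82.6 and 74.7 and Gata5 at 71.8 and 80.1, with the nearest RUNX1 peaks 22943 and 59754 bp away. Of the other autosomal GATA genes, Gata2 of blood progenitors and Gata4 of heart and endoderm had no such region and a RUNX1 peak at a start, and Gata3 had neither.

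WNT signalling, which sets cell fate in most embryonic tissues, had 22 of 49 genes, 44.9% (31.9 to 58.7), and 6 with a RUNX1-overlapped region. Of the 19 Wnt ligands themselves, 13 had a region. Wnt9b, chr11:103749601-103750138, had −log10 q 23.0 and 14.4 and percentiles 93.3 and 89.6. Wnt4 followed at 92.0 and 84.8, Wnt10a at 80.5 and 89.3 and Wnt6 at 82.5 and 85.3. The receptors and modulators with a region were Fzd1, Fzd2, Fzd6, Ror2, Lgr6, Rspo1, Rspo2, Sfrp1 and Sfrp2. FGF signalling had 13 of 29 genes, 44.8% (28.4 to 62.5), with Fgf4 at 90.4 and 80.4, the receptor Fgfr3 at 83.5 and 84.8 and the morphogen Fgf8 at 76.1 and 67.1.

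TGF-β and BMP signalling had 15 of 58 genes. They included the ligand genes Bmp6 and Nodal, Inhbb (the activin beta-B subunit) and Fstl4 (a follistatin-like protein). Chrd, Chrdl2, Grem1, Nog and Smad9, which are not ligand genes, were also among them. Fstl4, Inhbb and Bmp6 stood between 75.9 and 87.6 in the list titled untr and between 76.6 and 89.1 in the list titled DOX. Nodal was at 76.5 and 61.0. Of 17 Hedgehog and Notch genes 7 had a region, the ligands Ihh (66.7 and 76.4), Dll1 (57.02 and 60.7), Dll4 and Jag1, the Notch ligand-like gene Dner, and the receptors Notch1 and Ptch1. Notch1, a receptor needed for the first blood stem cells, was among the weakest at percentiles 8.25 and 13.3.

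Genes of excitable cells gave more genes than any other single list. Of 221 ion channel and neurotransmitter receptor genes, 81 had a region without RUNX1, 36.7% (30.6 to 43.2), and 19 one overlapping RUNX1. Besides Kcnh3, the T-type calcium channel gene Cacna1i stood at 92.0 and 87.9 and the serotonin receptor gene Htr6 at 91.4 and 87.3. By symbol, 10 of 13 Cacna genes, 4 of 4 Kcnc genes and 4 of 5 Kcnq genes had a region. Shares were lower for other channel families, such as Kcnk with 6 of 14 and Kcnh with 4 of 8. The share over all genes was 6.92%. Families by symbol, also Cadm below, were named after their counts were seen. Guidance genes for axons had 17 of 72, led by Epha8 (93.8 and 90.4), and of the synaptic adhesion genes Cadm1 to Cadm4 all 4 had a region. Markers of neural cells had 7 of 19, with Nkx2-2 at 75.7 and 91.1, the vesicular glutamate transporter gene Slc17a7 at 77.9 and 83.1, Tubb3 at 89.3 and 63.6 and Neurog1 at 64.2 and 76.0.

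Among genes of the cell surface and its surroundings, collagen and matrix genes had 23 of 101, 22.8% (15.7 to 31.9), with the matrix proteins Adamtsl3 (90.4 and 88.7), Adamts18 (93.3 and 84.8) and Col8a2 (88.0 and 87.8) highest. Cadherins and protocadherins had 12 of 96, 12.5% (7.30 to 20.6), an interval that excludes the 6.92% of all genes only narrowly. Cdh22 was at 92.0 and 92.1. Cdh1 (E-cadherin, of epithelia) was at 79.8 and 29.1.

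For genes of the blood lineage the lists are too short to place their share against that of all genes. Of 20 hematopoietic regulators 3 had a region without RUNX1, 15% (5.24 to 36.0), an interval that includes the 6.92% of all genes. None had a RUNX1-overlapped one, a count too small to set apart from the 2.4% of all genes. A RUNX1 peak was centred within 1500 bp of a start of 16, against 51.8% of all protein-coding genes. Runx1, Spi1, Tal1, Lmo2, Gfi1, Myb and Ikzf1 were among those with a RUNX1 peak and no region. None of 16 listed genes expressed by blood cells, such as Mpo, Csf1r, Ptprc and Itga2b, had a region, and the interval, 0 to 19.4%, also includes 6.92%. Blood genes outside the list did have regions: besides Csf2ra, named after their values were seen, Cd14, the lipopolysaccharide co-receptor of monocytes, had a weak one at percentiles 13.4 and 20.6, and Prtn3, a neutrophil protease, shared one with Plppr3 at 4.45 and 46.1.

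The 3 regulators with a region differed widely in strength. Cebpa, the master factor of granulocyte differentiation, had −log10 q 19.2 and 17.9 at chr7:35119640-35120270, in the coding exon, and percentiles 91.3 and 92.4. RUNX1 peaks covered the Cebpa start itself, 200 bp from the region in the library labelled DOX (−log10 q 10.2) and 305 bp from it in the library labelled untreated (13.7). Cebpb, a related factor of myeloid and stress responses, had a region closest to the start of the neighbouring gene Tmem189, at percentiles 25.1 and 67.9, and RUNX1 peaks covered the Cebpb start, 426 and 873 bp from the region. Irf8, the factor of monocytes and dendritic cells, had a weak region at percentiles 15.3 and 16.7, and its nearest RUNX1 peak was 49311 bp away.

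Markers of other cells that a culture of ESC origin could hold were also counted. Of 21 endothelial genes 6 had a region, 28.6% (13.8 to 49.96): Sox7 (93.1 and 89.4), Nr2f2 (86.7 and 66.9), Flt1 (67.1 and 59.6), Dll4 (20.5 and 70.9), Sox17 (58.4 and 17.5) and Sox18. Sox7, Sox17 and Sox18 are the SOX-F factors of endothelium and hemogenic endothelium, and Nr2f2 is the factor of veins. Kdr, Cdh5 and Pecam1, which define endothelium, had none. A RUNX1 peak lay 52 bp from the Sox17 region and 1246 bp from the Nr2f2 region, and both genes had one at a start. Dll4, Flt1, Sox7 and Sox18 had no RUNX1 peak at a start. Of 15 pluripotency genes 5 had a region, 33.3% (15.2 to 58.3), with a median mean percentile of 85.4 against 60.4 over all genes with a region: Sox2 at 88.9 and 88.7, Esrrb at 87.8 and 89.2, Fgf4, Klf2 at 78.0 and 84.7, and Utf1 at 76.5 and 26.7. Pou5f1, Nanog and Zfp42 had none. Of 17 lymphoid genes Pax5 (87.7 and 45.3) and Bcl11b (49.5 and 14.6) had one, 11.8% (3.29 to 34.3), which includes the 6.92% of all genes.

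Of 7 genes of CDK inhibitors, Cdkn1c (p57, an imprinted gene) had 2 regions, the stronger by mean at 76.8 and 80.7, and Cdkn1a (p21) had a weak one at 11.4 and 23.2. None of 26 genes of Polycomb complexes had a region without RUNX1 (0 to 12.9%, against 6.92% of all genes) and Bmi1 had one that overlapped RUNX1. A RUNX1 peak lay at a start of 24 of the 26, or 92.3%, against 51.8% of all genes. Families tied to the study's question were counted after their values were seen. None of 12 AP-1 genes (Fos, Jun, Batf and related genes) had a region without RUNX1, a count too small to set apart from 6.92%. Batf3 and Jdp2 had RUNX1-overlapped regions, and 11 of the 12 had a RUNX1 peak at a start, against 51.8% of all genes. Of Runx1, Runx2, Runx3 and Cbfb, all with a RUNX1 peak at a start, Runx2, the factor of bone formation, had a region without RUNX1 (42.1 and 34.7) and Runx3 an overlapped one.

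As a check of the H3K27me3 label, genes that are highly transcribed in growing cells were counted over promoter regions of both kinds, with and without RUNX1, which lay at 8.77% of all genes. None of 78 ribosomal protein genes (0 to 4.69%) and 1 of 67 replication-dependent histone genes, Hist3h2ba with a RUNX1-overlapped region, had one. A RUNX1 peak lay at a start of 78.2% and 97.0% of these genes, so the rule itself bears on their absence among the regions without RUNX1. Of 1086 olfactory receptor genes, silent and poor in CpG, Olfr94 and Olfr270 had one of either kind, and Olfr94 had the only one without RUNX1, at percentiles 18.8 and 9.3.

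Apart from protein-coding genes, 27 annotated microRNA genes had a start within 1500 bp of a region, of which 15 were matched by symbol to RefSeq sequences of GRCm38.p6. They included microRNAs of neurons, epithelia and endocrine cells. For 5 of them, 1 mature form each is shown with the seed, bases 2 to 8, in capitals, since microRNAs with 1 seed share predicted targets. For Mir375 the matched sequences held only the 5p form, so its other form and that form's seed are not shown.
miR-9-5p (Mir9-3): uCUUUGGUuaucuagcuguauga
miR-203-3p (Mir203): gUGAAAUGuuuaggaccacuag
miR-375-5p (Mir375): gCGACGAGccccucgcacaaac
miR-132-3p (Mir132): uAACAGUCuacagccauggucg
miR-212-3p (Mir212): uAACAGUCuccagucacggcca
miR-132-3p and miR-212-3p have the same seed and come from neighbouring genes that shared a region at percentiles 3.05 and 38.8. Mir9-3, of neural progenitors, had its region at 89.4 and 43.9, Mir203, of the epidermis, at 64.7 and 83.9, and Mir375, of pancreatic islets, at 83.1 and 65.8. Mir124a-3, of neurons, had 3 regions, from 11.9 to 40.8 in the list titled untr and from 1.36 to 72.9 in the list titled DOX, and Mir124a-2 a weak one (0.217 and 13.8).

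By rule no region overlapped RUNX1, but the distance to it ran from 1 to 1804253 bp. The median region was 19286 bp from the nearest RUNX1 peak of either list. A RUNX1 peak lay within 500 bp of 231 regions (12.7%), within 1 kb of 331 (18.2%), within 10 kb of 707 (38.9%) and within 50 kb of 1289 (71.0%). The nearest were at Gm42517 (1 bp), Fam20c (4 bp) and Adcy5 (6 bp), and just on the other side of the rule were regions that RUNX1 peaks overlapped by 4 bp at Nlrp5-ps, 5 bp at Dennd3 and 8 bp at Mfsd6. The farthest were at the neuronal adhesion genes Cadm2 (1804253 bp) and Lingo2 (1709609 bp) and at Dpp10 (1389149 bp). Of the 1438 genes, 447, or 31.1% (28.7 to 33.5), had a RUNX1 peak centred within 1500 bp of one of their starts, against 53.4% (52.6 to 54.1) of the other protein-coding genes. The rule removes regions with RUNX1, so this difference is a description.

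Whether a promoter H3K27me3 region lacked RUNX1 moved with its strength. Of the 2448 promoter regions, 74.2% (72.4 to 75.9) had no RUNX1 peak. Split into 5 equal groups by mean percentile, the share was 85.9% (82.5 to 88.7) in the weakest, then 82.9%, 75.5% and 72.0%, and 54.7% (50.3 to 59.0) in the strongest. Without regions over 50% soft-masked it was 85.5% in the weakest and 64.4% (59.96 to 68.6) in the strongest. Stronger regions were also wider, with a Spearman correlation of 0.57 between mean percentile and width over the 1816 regions. The part of width in the trend was not tested. Among the regions without RUNX1, the same ranking went with CpG content: the median ratio rose from 0.73 in the weakest of 5 groups through 0.77, 0.80 and 0.83 to 0.88 in the strongest, and the median width from 234 to 630.5 bp. Of promoter regions found in 1 list only, 86.8% (84.9 to 88.4) of 1420 in the list titled DOX and 86.0% (84.2 to 87.5) of 1680 in the list titled untr had no RUNX1 peak. Of the 1101 regions of both lists away from promoters it was 44.4% (41.5 to 47.4), and 39.8% of these 1101 were over 50% soft-masked.

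**Figure D5:**
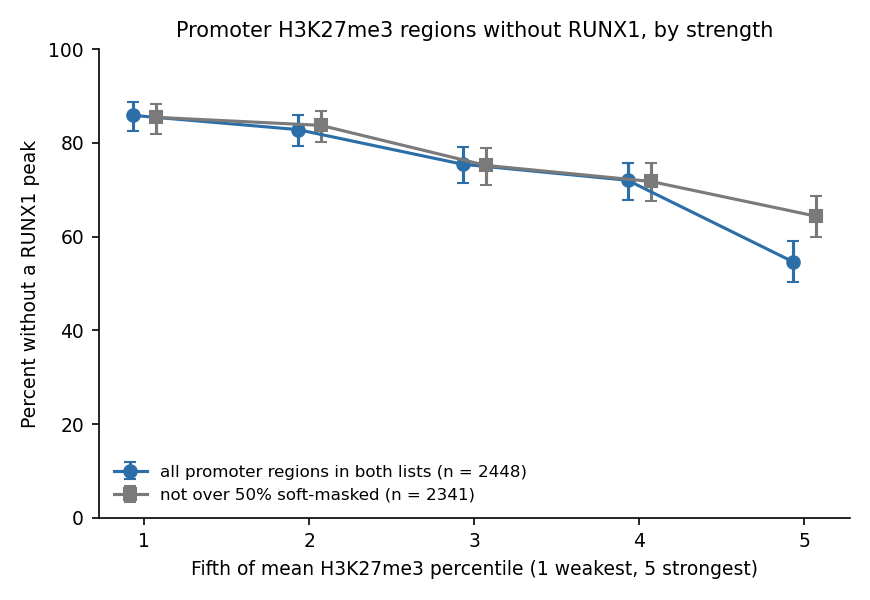
Percent of promoter H3K27me3 regions without a RUNX1 peak (y axis) in 5 equal groups by mean percentile of −log10 q, weakest to strongest (x axis), for all 2448 regions (blue) and without those over 50% soft-masked (grey), with 95% Wilson intervals as bars. The share falls from 85.9% to 54.7%, or from 85.5% to 64.4% without repeats.

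The 2 H3K27me3 libraries ranked a minority of regions very differently. The regions that stood much higher in the list titled untr were Slc7a10, an amino acid transporter (91.9 against 7.13), Wnt7b (80.7 against 3.75), Mllt3, a regulator of blood stem cells (84.1 against 7.997), and the potassium channel gene Kcnj4 (82.2 against 7.88). Those much higher in the list titled DOX were Nacc2 (3.18 against 79.9), the adrenergic receptor gene Adra1a (2.26 against 78.8), Trim2 (10.9 against 85.1) and C1ql3, which encodes a synaptic protein (11.98 against 84.03). The median difference over all 1816 regions was −0.494 percentile points, and the middle range ran from −15.2 to 14.5. With 1 library per title these ranks have no replicate check, and library, treatment and chance cannot be told apart.

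Short consensus sequences were counted on both strands in the 500 bp around the centre. The RUNX letters TGTGGT were in 13.2% (11.7 to 14.9) of the 1816 windows, in 16.1% (13.5 to 19.2) of the RUNX1-overlapped ones and in 23.1% (22.5 to 23.7) of all protein-coding starts. The ETS letters CCGGAAG or CAGGAAG were in 19.1%, 16.1% and 31.1%, the AP-1 letters TGACTCA or TGAGTCA in 3.08%, 2.06% and 6.25%, and the GATA letters AGATAA in 4.19%, 4.75% and 14.1%. The GC-rich SP/KLF letters GGGCGG went the other way, with 78.1%, 72.5% and 54.2%. The E-box CAGCTG was in 28.6%, 27.4% and 26.4%. The median GC content of these windows was 68.8%, 71.2% and 57.8%, and the counts were not adjusted for it.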

How the data were processed

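ChIP-seq peak lists were used for RUNX1 and H3K27me3, 1 library per label and 4 in all, collected at day 2. Per the submitters' processing notes, reads were aligned to mm10 with Bowtie2 2.2.9 and peaks called with MACS2 2.1.1. The study's methods give a q threshold of 0.05 for RUNX1 and do not describe the H3K27me3 lists. For RUNX1 they name another Bowtie2 version and filters against a blacklist, a repeat list and DNaseI data. The deposited lists used here still held peaks in soft-masked repeats. An input control is not given in the sources used here. The deposited lists give, per peak, a fold enrichment (a ratio over the caller's background), −log10 of the p-value and of the q-value, and the summit's offset from the start. The authors' peaks were called per library. Depth is unknown, because the deposited values hold no read counts.

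Peaks on chromosomes 1 to 19 were merged where they overlapped. Regions were assigned to transcription starts of GENCODE vM21 within 1500 bp. CpG content and motifs were read in 500 bp around each centre of GRCm38 with Python 3.11.15 and NumPy 2.4.6, and figures drawn with Matplotlib 3.10.9. The code for the rule was run on 800 simulated regions built to meet or miss the rule clearly. It recovered 100% of the members with 0 false ones. That checks the code only, and regions near the limits of the rule were not simulated. Percentiles are ranks of −log10 q within a list. Shares have 95% Wilson intervals. No test was run, since there are no replicates.

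The regions, the 29 gene lists and the rule for named genes were chosen with earlier results of these data known. That rule took the 10 strongest regions, up to 4 genes per list, every region of hematopoietic, GATA, Polycomb and CDK inhibitor genes, the 4 largest differences between lists each way, the 3 regions nearest each limit, the 3 nearest to and farthest from RUNX1, and genes with 3 or more regions. Other genes were named after their values were seen. Effects of 15 alternatives on 4 results were computed. Some items withheld from the text are not reported here.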

Additional observations from a re-analysis of the deposited data

How the results depend on the processing

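The main values were 1816 regions, 74.2% of promoter regions without RUNX1, a median CpG ratio of 0.80 and 11.96% of genes in the transcription factor lists. The last ranged from 10.7% to 12.3% over all 15 alternatives. The number stayed within 1.5 times the main count in 11 of 15. It was 1017 with −log10 q of at least 5 in both lists, 217 with at least 10, 3401 with the list titled untr alone and 3442 with the list titled DOX alone. These 4 gave shares without RUNX1 of 68.6%, 52.5%, 79.7% and 80.6% and CpG ratios of 0.833, 0.886, 0.749 and 0.747. The CpG ratio was 0.816 for centres within 500 bp of a start. The share was 60.7% when no RUNX1 peak was allowed within 1000 bp, 80.8% when only RUNX1 peaks with −log10 q of at least 5 excluded a region, 78.1% and 81.6% when only the RUNX1 list labelled DOX or labelled untreated did, 70.9% with peaks up to 500 bp apart merged, and 76.1% without regions over 50% soft-masked. The stricter and looser rules keep fewer or more regions by construction. No paired analysis was possible because each label has 1 library, and no replicate could be left out. Depth is unknown, so a missing peak does not show that a mark or factor was absent.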
